A study of Mus musculus with 48 samples.

Results

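The MYC and MAX network genes were taken as 7 genes named by symbol: Myc, Mycn, Mycl, Max, Mga, Mnt and Mlx. All 7 were matched to a gene identifier, and 5 of them were among the 23862 identifiers that had a value in at least 1 library. Their transcripts were followed in mouse embryonic stem cells (mESCs) of the E14TG2a line, kept in medium with 2i and LIF, after transcription had been stopped with 1 µM flavopiridol. Flavopiridol blocks the kinase needed for paused polymerase to move on. A transcript's change over time in a fraction is then the net of its decay and its movement into and out of that fraction. Polyadenylated RNA was sequenced from 4 fractions (total extract, nucleus, cytosol and membrane) at 30, 60, 120 and 240 min. There were 3 independently passaged replicates, and by the protocol each harvest was split into the fractions, which gave 48 libraries in all. Every library came from treated cells of 1 line, and the 0 min libraries were not analysed here.

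The proteins of this network bind DNA as pairs. MYC, MYCN and MYCL each pair with MAX at E-box sequences and activate genes of ribosome synthesis, metabolism and cell growth. MNT and the MXD proteins compete for MAX and recruit SIN3 corepressors, MGA joins MAX in a Polycomb-type repressor complex, and MLX pairs with the nutrient-responsive MLXIP and MLXIPL. In mESCs, MYC and MYCN support self-renewal, and mRNAs of MYC proteins are known for fast turnover.

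Each value was the ratio of a transcript's level to its own level at 0 min in the same fraction. A ratio below 1 means less than the starting amount, and ratios carry no order of abundance between genes or between fractions. Between 15067 and 19501 genes were listed per library, and the median ratio over genes lay between 0.313 and 0.972. The nuclear library at 30 min of replicate 1 stood apart, with a median of 0.556 against 0.934 and 0.805 in the other two. Of 8 mESC markers, 6 were listed in all 48 libraries, Zfp42 in 47 and Esrrb in 37. Markers of fibroblasts and of differentiating cells were listed too, from Sox17 in 1 library to T in 46, and their part in the results was not tested.

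Listing set what could be measured for each member. Mnt was listed in all 48 libraries, Mycn in 34, Mlx in 21, Mycl in 3 and Myc in 1, while Max and Mga were listed in 0. The deposited tables do not tell why a gene is unlisted, and an unlisted value was set to 0 only where stated. Gapdh, which every cell uses, was listed in 31 libraries, and Ldha and Trp53 were listed in 0, whereas Actb and Eef1a1 were listed in 48. An unlisted member was therefore not read as an absent transcript. The 6 other genes of the network, Mxd1, Mxi1, Mxd3, Mxd4, Mlxip and Mlxipl, were listed in all 48 libraries except Mxi1, which was listed in 34.

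**Figure D1:**
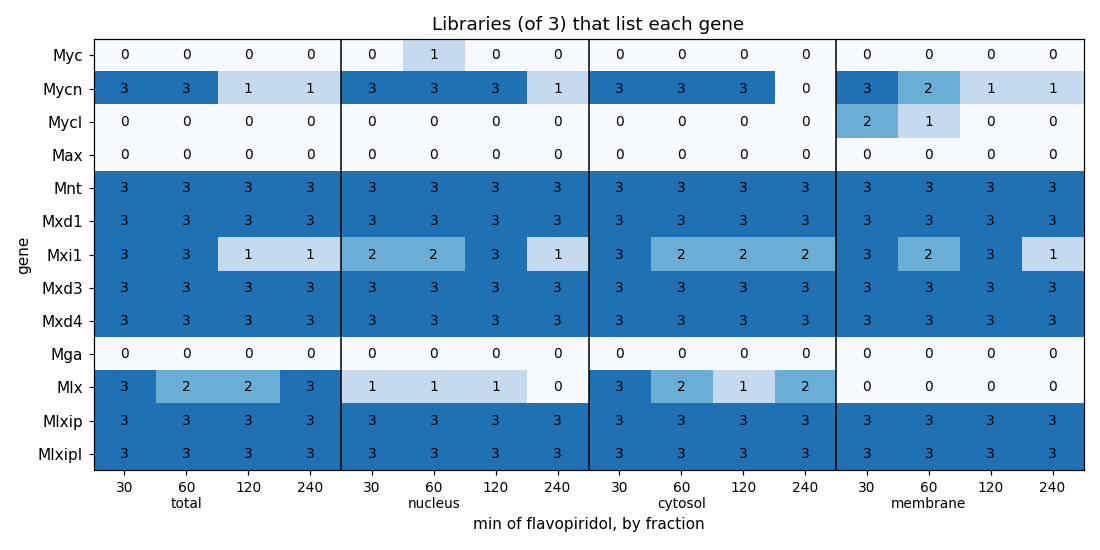
Number of libraries, out of 3 replicates, that list each gene (rows) at each time in min and fraction (columns), with darker blue for more libraries. Mnt and 5 other network genes are at 3 throughout, Mycn is listed mainly at the early times, and Max and Mga are at 0 throughout.

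The pentamer ATTTA is the core of AU-rich elements, the best known signal for fast mRNA decay. It was counted on the transcript strand in the 3′ UTR of the longest annotated coding transcript (GRCm38, the mm10 build). Windows of 30 bases around a match are shown for Mycn and Mnt, the members with the fullest time courses, for Myc, and for Mxd1, the network gene with the lowest slopes. Each is written 5′ to 3′ on the transcript strand with ATTTA in capitals.
Mycn, chr12:12936148-12936177, minus strand: caaaatgtatatATTTAgtgctgcacctta
Mnt, chr11:74844326-74844355, plus strand: ttttaagtggatATTTAttacaagtggcct
Myc, chr15:61990135-61990164, plus strand: taacagatttgtATTTAattgtttttttaa
Mxd1, chr6:86649907-86649936, minus strand: tgtggtatttttATTTAaggtaaaccagag
The 3′ UTRs of Mycn (913 bases) and Mnt (2405 bases) each held 1 match, that of Myc (442 bases) held 2, and that of Mxd1 (3829 bases) held 5. Among the other members, Mycl held 2, Max 1, Mga 5 and Mlx 2. At least 1 match was present in 62.6% of 21660 genes with an annotated 3′ UTR, and such a match was thus common. Per kb of 3′ UTR, Myc held 4.53 matches, a density that 9.84% of genes with a 3′ UTR of at least 100 bases reached, and the other members held between 0.416 (Mnt) and 1.92 (Mlx). The median density over these genes was 1.35, and Mxd1, with its long 3′ UTR, held 1.31 per kb. By count of matches, of the other network genes Mxi1 held 9 (2.21 per kb), Mlxip 2, and Mlxipl and the repressor partners Mxd3 and Mxd4 held 0.

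Mycn, the MYC family member named for neuroblastoma, lies on chromosome 12 from 12936093 to 12941914 (minus strand, 3 exons), and its ratios were low from 60 min on. In total RNA its ratio was 1.19, 0.436 and 0.347 at 30 min in replicates 1, 2 and 3, and 0.215, 0.0819 and 0.360 at 60 min. Only replicate 1 listed it at 120 min (0.0322) and at 240 min (0.0287). The replicates at 30 and 60 min overlapped, since replicate 3 had about the same ratio at both times.

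In the nucleus the Mycn ratio was 0.814, 1.28 and 0.876 at 30 min and 0.0734, 0.260 and 0.0741 at 60 min. It was 0.186, 0.251 and 0.114 at 120 min, and 240 min listed it only in replicate 2 (0.0459). The 30 and 60 min values did not overlap, and those at 60 and 120 min did. In the cytosol it was 1.77, 0.971 and 1.57 at 30 min, then 0.706, 0.359 and 0.370 at 60 min. At 120 min the cytosolic ratios were 0.0819, 0.410 and 0.161, and 0 of 3 libraries listed it at 240 min. Cytosolic Mycn thus separated 30 min from both later times, with an overlap between 60 and 120 min. In the membrane fraction, which the paper describes as mostly endoplasmic reticulum and mitochondria, the ratios were 0.856, 0.737 and 0.621 at 30 min. At 60 min replicates 2 and 3 listed it, at 0.0918 and 0.185, and after that only replicate 2 did, at 0.0851 and 0.0684.

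**Figure D2:**
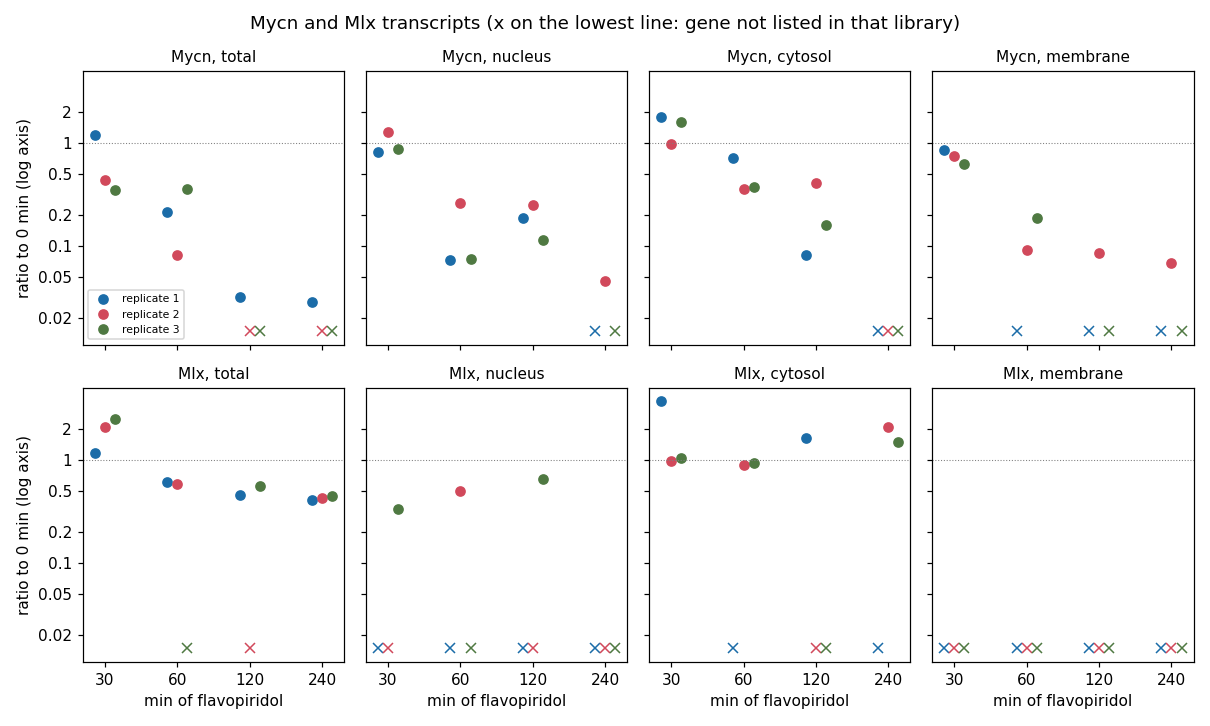
Ratio to 0 min (log axis) of Mycn (top) and Mlx (bottom) in each library, by fraction and min of flavopiridol, with 1 colour per replicate. A cross on the lowest line marks a library that does not list the gene, and has no value of its own. Mycn lies between 0.347 and 1.77 at 30 min and at or below 0.706 from 60 min on, and Mlx is listed in 0 membrane libraries.

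Since Mycn was not listed in all 12 libraries of any fraction, it entered no test of the full time course. Over 30, 60 and 120 min alone, 9 libraries, it could be tested in the cytosol and the nucleus. The slope is the change of log2 of the ratio per hour, fitted with limma and adjusted by Benjamini-Hochberg over all genes tested. In the cytosol Mycn fell by 1.91 per h (SE 0.388, adjusted p = 0.00333), while the median gene had a slope of -0.34 and 49.5% of 12814 genes fell. In the nucleus the slope was -1.32 (SE 0.639, adjusted p = 0.126), with a median over genes of -0.42 and 39.6% of 14320 genes falling. The nuclear value did not pass the threshold of 0.05.

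With unlisted values set to 0 and a pseudocount of 0.1, Mycn could be tested over all 12 libraries of each fraction. On this log2(ratio + 0.1) scale, which understates the change of low ratios, the Mycn slope passed in each fraction by limma. These calls rest on reading 4, 2, 3 and 5 unlisted libraries of 12 (total, nucleus, cytosol, membrane) as 0, which the tables do not establish. The slopes were -1.02 per h for cytosolic RNA (SE 0.129, adjusted p = 2.46e-05), -0.72 for nuclear RNA (SE 0.173, adjusted p = 0.00463), -0.68 for total RNA (SE 0.179, adjusted p = 0.00752) and -0.61 for membrane RNA (SE 0.210, adjusted p = 0.0296). The share of all genes that fell under this setting was 51.0%, 45.6%, 43.0% and 47.8% in the same order. The change from 30 to 60 min passed in the nucleus (-2.28, adjusted p = 0.0179) and the membrane fraction (-2.24, adjusted p = 0.0249). It did not pass in total RNA (-1.18, adjusted p = 0.171) or the cytosol (-1.42, adjusted p = 0.119). For this step the share of all genes that fell was 2.68% (nucleus), 9.77% (membrane), 1.67% (total) and 0.227% (cytosol). An exponential fitted with unlisted values as 0 gave Mycn a half-life of 18.6 min in total, and separate fits to the 3 replicate series gave 12.2, 12.4 and 43.6 min. That fit started at 2.01 at 0 min, and with the start fixed at 1 the half-life was 33.5 min.

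Myc, the founding member of the family, was listed only in the nuclear library of replicate 1 at 60 min, at 0.738. Mycl, the member named for lung cancer, was listed only in the membrane fraction. Its ratio there was 1.92 and 0.946 at 30 min in replicates 1 and 2, and 0.825 at 60 min in replicate 2. With 1 and 3 values, no time course can be read for either gene. Max, the shared partner, and Mga, its repressor partner, had no value in any library. The annotation places Max on chromosome 12 from 76937269 to 76962201, where 1 gene on the same strand, Gm47218, overlaps it. No same-strand or opposite-strand gene overlaps Mga, on chromosome 2 from 119897228 to 119969581.

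Mnt, the MAX partner that antagonises MYC, was the only member with a complete record, and it fell in all 4 fractions. It lies on chromosome 11 from 74830920 to 74845725 (plus strand, 6 exons). In total RNA the ratio was 0.880, 0.836 and 0.886 at 30 min and 0.625, 0.503 and 0.652 at 60 min. It was 0.322, 0.388 and 0.302 at 120 min and 0.266, 0.271 and 0.284 at 240 min. Each time lay wholly below the one before, and the mean fell from 0.867 ± 0.0272 (SD, n = 3) to 0.274 ± 0.00958 over the course.

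In the cytosol Mnt stood at 0.866, 0.840 and 1.03 at 30 min and at 0.615, 0.596 and 0.698 at 60 min. At 120 min its ratios were 0.338, 0.369 and 0.373, and at 240 min 0.180, 0.176 and 0.178. Here too no neighbouring times overlapped, and the 240 min ratios were the closest together of the 16 groups (SD 0.00211). Membrane RNA held 0.881, 0.737 and 0.788 of the Mnt start level after 30 min, and 0.511, 0.479 and 0.538 after 60 min. It then reached 0.377, 0.345 and 0.342 at 120 min and 0.239, 0.270 and 0.223 at 240 min, again without overlap between neighbouring times.

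Nuclear Mnt was already low at 30 min, at 0.420, 0.748 and 0.601, where the lowest value is that of the replicate 1 library with the low median. Later ratios were 0.386, 0.348 and 0.454 at 60 min, 0.276, 0.311 and 0.270 at 120 min and 0.233, 0.201 and 0.206 at 240 min. The 30 and 60 min values overlapped, and the later times did not. Relative to its own 0 min level, nuclear Mnt at 30 min (0.420 to 0.748) lay below cytosolic Mnt (0.840 to 1.03), and at 240 min the order was turned, with 0.201 to 0.233 in the nucleus and 0.176 to 0.180 in the cytosol.

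**Figure D3:**
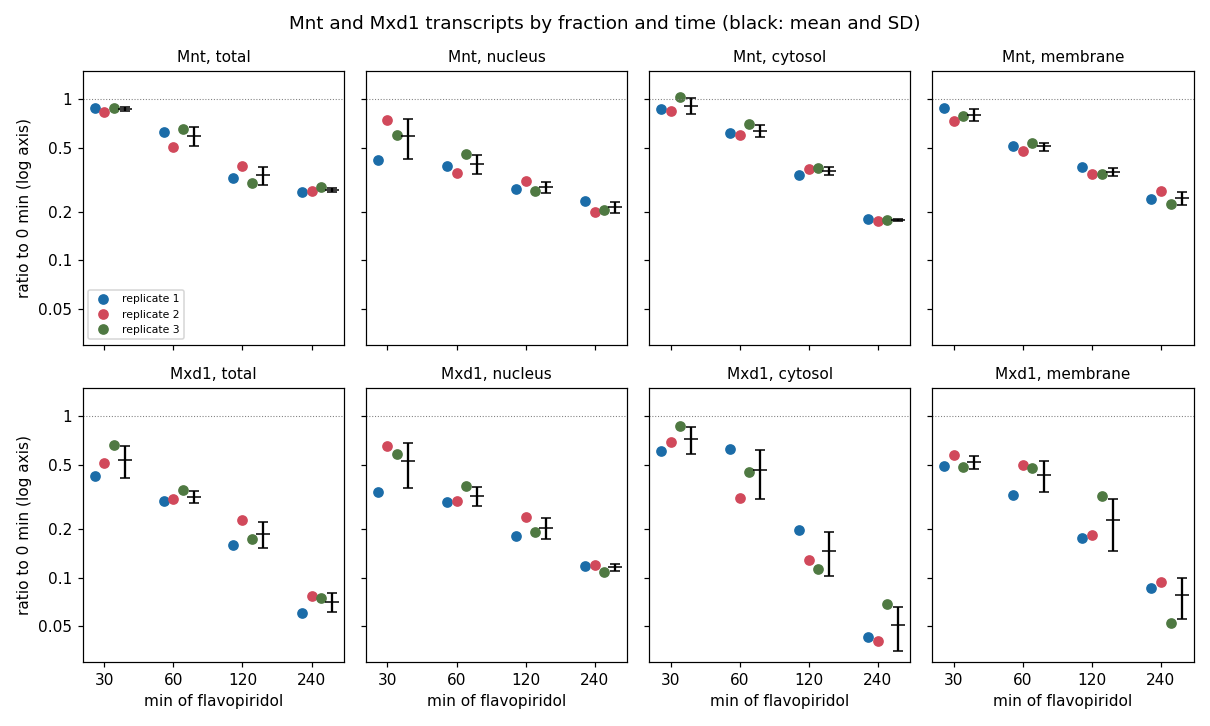
Ratio to 0 min (log axis) of Mnt (top) and Mxd1 (bottom) in each library, by fraction and min of flavopiridol, with 1 colour per replicate and the mean and SD of 3 replicates in black. Mnt ends between 0.176 and 0.284 and Mxd1 between 0.0406 and 0.120 at 240 min.

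By limma, the slope of Mnt over 30 to 240 min was -0.66 per h for cytosolic RNA (SE 0.0417, adjusted p = 2.85e-08), -0.45 for total RNA (SE 0.0681, adjusted p = 8.54e-05), -0.45 for membrane RNA (SE 0.0555, adjusted p = 1.23e-05) and -0.37 for nuclear RNA (SE 0.0680, adjusted p = 0.000328). That made 1 of 1 members tested falling in each fraction, against 67.1%, 56.9%, 62.2% and 61.9% of all genes tested in the same order, while 2.95%, 3.39%, 4.09% and 3.32% of all genes rose. A fall was thus the common state of genes after the block, and the size of Mnt's slope says more than the call. In the cytosol 16.7% of genes had a lower slope than Mnt, in total RNA 26.2%, in the membrane fraction 28.6% and in the nucleus 43.1%. With every library centred on its median gene the nuclear slope was -0.06 (adjusted p = 0.246). That setting tests a fall beyond the median gene, whose nuclear slope was -0.30, and not the fall itself. Scaled to the mitochondrially encoded mRNAs the nuclear slope of Mnt was -0.18 (adjusted p = 0.404), so the nuclear call was lost on that scaling. The same scaling moved the nuclear slope of the median gene to -0.11.

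From 30 to 60 min Mnt fell only in the membrane fraction by the limma test, by 0.65 on the log2 scale (SE 0.122, adjusted p = 0.0178), where 12.7% of genes fell. The same step was -0.56 in total RNA (adjusted p = 0.0610), -0.54 in the nucleus (adjusted p = 0.165) and -0.52 in the cytosol (adjusted p = 0.05002, just above the threshold). Of all genes, 2.32%, 2.18% and 1.89% fell in these fractions. Whether the step differed between fractions was not tested. Leaving out any 1 replicate lost the call in the membrane fraction, with adjusted p between 0.124 and 0.242, as did centring on the median gene (0.0892) or scaling to the same total (0.0724). Leaving out the nuclear 30 min library of replicate 1 gave a nuclear step of -0.77 (adjusted p = 0.0174).

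An exponential fit gave Mnt half-lives of 74.2 ± 7.86 min for cytosolic RNA (SD over 3 replicate series), 92.0 ± 12.3 min for total RNA, 98.4 ± 16.8 min for membrane RNA and 121 ± 73.3 min for nuclear RNA. The cytosolic series (66.7 to 82.4 min) lay below those of total RNA (85.7 to 107.0 min) and membrane RNA (88.1 to 119.3 min). The nuclear series ranged from 82.0 to 220.2 min, the longest being that of replicate 1, and overlapped all of them. Scaled to mitochondrially encoded mRNAs, membrane RNA gave 47.3 min and cytosolic RNA 74.2 min, so the order turned with the scaling. It also turned with the level at 0 min fixed at 1 in place of fitted, which gave 94.3 min (cytosol), 94.4 min (total), 83.1 min (membrane) and 53.9 min (nucleus). Centred on the median gene, the fits gave 225.9, 137.5, 279.1 and 903.2 min for total, cytosol, membrane fraction and nucleus. These centred values measure loss relative to the median gene, which itself fell, and are not half-lives of the transcript.

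The fall of Mnt was compared between fractions as a difference in slope, fitted on 24 libraries. The nuclear slope was higher, that is less steep, than the cytosolic one by 0.28 per h (95% confidence interval 0.12 to 0.44, adjusted p = 0.0131, limma). This was 1 of 1 members tested, beside 12.3% of 11232 genes with a higher nuclear slope. The adjusted p was 0.153 without replicate 1 and 0.125 without replicate 3, and 0.0201 without the nuclear 30 min library of replicate 1. Over 30 to 120 min alone it was 0.463, and scaled to mitochondrially encoded mRNAs 0.634. Between membrane and cytosol the difference was 0.21 (95% confidence interval 0.07 to 0.35, adjusted p = 0.0688), where 4.94% of 11086 genes had a higher membrane slope and 1.76% a lower one. It did not pass, and its unadjusted interval lay above 0. By the protocol each harvest was split into fractions, and fractions with the same time and replicate number were taken as 1 harvest. The fit above did not use this pairing and took the 24 libraries as independent. With harvest as a block, an alternative chosen after seeing the data, the adjusted p was 0.0317 for membrane minus cytosol, which passed, and 0.00502 for nucleus minus cytosol.

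The genes whose course over the 16 fraction and time groups was nearest to that of Mnt were Rbm4b, Mief1 and Arhgef18, among 8602 genes listed in all 48 libraries, with predicted genes (symbols of Gm and digits or ending in Rik) left out. Their root mean square differences from Mnt in mean log2 ratio were 0.14, 0.16 and 0.17, where the median over these genes was 0.93. In total RNA at 240 min Rbm4b had a mean log2 ratio of -1.84, close to the -1.87 of Mnt, while Mief1 and Arhgef18 had -2.32 and -2.16.

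Mlx, the MAX-like partner of MLXIP and MLXIPL, had values that spread widely. In total RNA it was 1.18, 2.08 and 2.49 at 30 min, 0.617 and 0.588 at 60 min in replicates 1 and 2, and 0.462 and 0.558 at 120 min in replicates 1 and 3. At 240 min all 3 libraries listed it, at 0.412, 0.432 and 0.448. Every listed ratio from 60 min on was below every ratio at 30 min.

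In the cytosol Mlx was 3.74, 0.972 and 1.05 at 30 min and 0.900 and 0.927 at 60 min in replicates 2 and 3. Later it was 1.64 at 120 min in replicate 1, and 2.10 and 1.5 at 240 min in replicates 2 and 3, so the cytosolic ratios showed no common course. The nucleus listed it in 3 libraries, at 0.337 (30 min, replicate 3), 0.501 (60 min, replicate 2) and 0.659 (120 min, replicate 3), and the membrane fraction in 0. With unlisted values as 0 and a pseudocount of 0.1, the limma slopes were -0.30 in total (adjusted p = 0.422), -0.22 in the nucleus (adjusted p = 0.460) and -0.19 in the cytosol (adjusted p = 0.731). None of the 3 passed. Mlx lies on chromosome 11 from 101087277 to 101092207, plus strand, and overlaps Psmc3ip on the other strand. The library kit marks strand. The paper names default RSEM parameters in its section on alignment and counting, but gives no counting setting where it describes the flavopiridol libraries.

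At 60 min in total RNA, only Mycn and Mnt of the members were listed in all 3 replicates. Mycn lay at 0.0819 to 0.360 and Mnt, without overlap, at 0.503 to 0.652. Among the other network genes Mxd1 (0.297 to 0.347) overlapped Mycn and lay wholly below Mnt. Mxd4 (0.586 to 0.744) overlapped Mnt, and Mlxipl (0.676 to 0.911) overlapped Mxd4. Mlxip (0.699 to 0.758) overlapped Mlxipl and lay below Mxd3 (0.780 to 1.02), and Mxi1 was above them all at 1.73 to 2.75.

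Of the 6 other network genes 5 could be tested, and all 5 fell in the nucleus, with 4 falling in each of total, cytosolic and membrane RNA and 0 rising. Of all genes 61.9% fell in the nucleus and 56.9%, 67.1% and 62.2% in the other fractions, so a fall was common. Their median slopes in total, nuclear, cytosolic and membrane RNA were -0.34, -0.36, -0.37 and -0.33 per h, beside medians over all genes of -0.22, -0.30, -0.28 and -0.26. From 30 to 60 min 0 of 5 fell in any fraction by limma, with 2 (total), 1 (nucleus), 0 (cytosol) and 0 (membrane) at an unadjusted p under 0.05. Mxd1, a MAX partner that represses MYC targets and rises as cells differentiate, had the lowest slope of the 5 in each fraction. Its ratio in total RNA was 0.427, 0.513 and 0.662 at 30 min, 0.297, 0.309 and 0.347 at 60 min, 0.16, 0.227 and 0.175 at 120 min and 0.0599, 0.0772 and 0.0751 at 240 min. No neighbouring times overlapped in total RNA. Its slope was -1.10 for cytosolic RNA (SE 0.0995), -0.81 for membrane RNA (SE 0.0774), -0.80 for total RNA (SE 0.0671) and -0.57 for nuclear RNA (SE 0.0770), with adjusted p by limma between 6.16e-07 and 2.83e-05. Only 4.15% of genes had a lower slope in the cytosol, and 25.0% in the nucleus. Scaled to mitochondrially encoded mRNAs, the nuclear slope of Mxd1 was -0.38 (adjusted p = 0.0957). Its half-life was 58.3 ± 15.4 min in total RNA and 42.7 ± 19.7 min in the cytosol (SD over 3 replicate series).

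Mxd3 and Mxd4, the other MXD repressors with a full record, fell in all 4 fractions. In total RNA the mean of Mxd3 was 0.864 ± 0.0987 (SD, n = 3) after 30 min and 0.478 ± 0.0446 after 240 min, and that of Mxd4 went from 0.768 ± 0.0597 to 0.257 ± 0.0936. The slopes of Mxd3 lay between -0.51 in the nucleus and -0.26 in total RNA, and those of Mxd4 between -0.49 in the cytosol and -0.33 in the nucleus. Centred on the median gene, Mxd3 no longer passed in total RNA, cytosol and membrane fraction, and Mxd4 no longer passed in the nucleus and membrane fraction. Over 30 to 120 min alone Mxd4 passed in 0 of 4 fractions, with adjusted p between 0.139 and 0.681. Mxi1, the remaining MXD repressor, was listed in 34 libraries. In total RNA Mxi1 was 2.36, 1.86 and 0.834 at 30 min and 2.48, 2.75 and 1.73 at 60 min, then 0.619 at 120 min in replicate 1 and 0.30 at 240 min in replicate 3. Its listed ratios were above 1 in 5 of 6 early libraries of total RNA and below 1 in both late ones.

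Of the MLX partners, Mlxip (MondoA) fell in all 4 fractions, with slopes between -0.37 (cytosol) and -0.33 (membrane). Its nuclear mean ratio was 0.552 ± 0.170 at 30 min and 0.232 ± 0.0291 at 240 min. Centred on the median gene, Mlxip no longer passed in the nucleus (-0.04, adjusted p = 0.543) and membrane fraction (-0.07, adjusted p = 0.0572). Mlxipl (ChREBP), which switches on lipid synthesis genes, fell only in the nucleus, where the slope was -0.32 (SE 0.0661, adjusted p = 0.000834, limma). Centred on the median gene that slope was -0.01 (adjusted p = 0.907). Its nuclear mean was 0.661 ± 0.212 after 30 min and 0.293 ± 0.0377 after 240 min. In the other fractions Mlxipl ended near or above its starting level, with means after 240 min of 1.03 ± 0.167 for total, 0.998 ± 0.126 for cytosolic and 1.53 ± 0.377 for membrane RNA. The slopes there were 0.10 (adjusted p = 0.156), -0.03 (adjusted p = 0.576) and 0.15 (adjusted p = 0.0599). Their direction changed with the scaling: the cytosolic slope was 0.25 (adjusted p = 0.000559) with libraries centred on the median gene, and those in total RNA and membrane were -0.02 and -0.08 with libraries scaled to mitochondrially encoded mRNAs.

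Nucleus and cytosol differed in slope for Mxd1 and Mlxipl, in opposite directions. Of 5 tested, Mxd1 had a higher nuclear slope by 0.53 per h (95% confidence interval 0.27 to 0.79, adjusted p = 0.00494), as Mnt had, and Mlxipl had a lower one by 0.29 (adjusted p = 0.0115). For scale, 12.3% of 11232 genes were higher and 8.30% were lower. Mxd3 (-0.22, adjusted p = 0.0916), Mxd4 (0.16, adjusted p = 0.205) and Mlxip (0.02, adjusted p = 0.894) did not pass. The Mxd1 call was lost without replicate 1 (adjusted p = 0.113), and the Mlxipl call without replicate 2 (adjusted p = 0.0695) and without replicate 3 (adjusted p = 0.262). Between membrane and cytosol 0 of 5 passed by limma, 2 of them, Mlxipl and Mxd1, with an unadjusted p under 0.05.

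**Figure D4:**
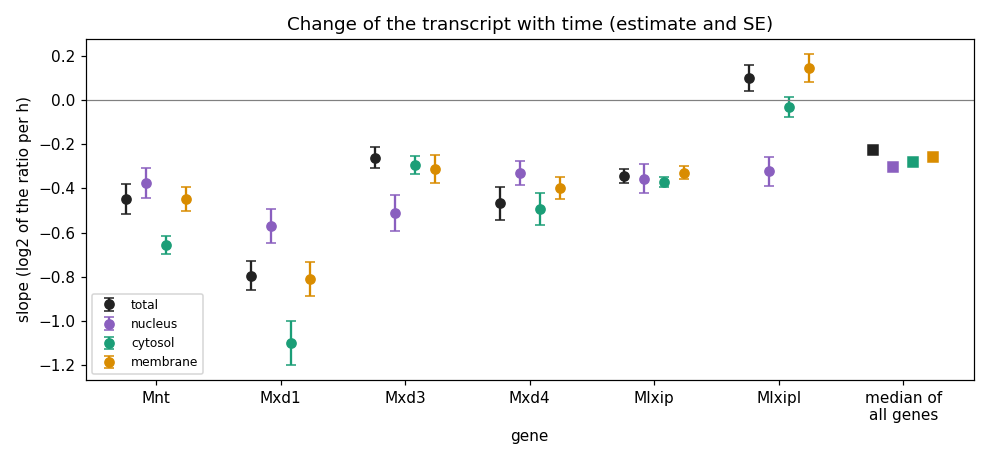
Slope of log2 of the ratio per h (y axis) with its SE for Mnt and the 5 other network genes listed in all 48 libraries, by fraction, with the median over all genes tested as squares on the right. Of the 6 genes Mxd1 is lowest in every fraction, and Mlxipl is near or above 0 except in the nucleus.

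The genes that work with the network were described through a list of 25, made of the MGA and MAX Polycomb partners, MYC cofactors, SIN3 corepressors and regulators of MYC protein turnover. Of these, 15 were listed in all 48 libraries, 4 in some and 6 in 0, the last being Tfdp1, L3mbtl2, Trrap, Kat2a, Sin3a and Aurka. Among the 15 tested, 12 fell for total RNA, 13 for nuclear RNA and 14 each for cytosolic and membrane RNA, and 0 rose, beside 56.9%, 61.9%, 67.1% and 62.2% of all genes falling. The median slopes were -0.32 (total), -0.45 (nuclear), -0.39 (cytosolic) and -0.37 (membrane), where all genes had -0.22, -0.30, -0.28 and -0.26. In total RNA, Rybp, a Polycomb subunit of the MGA complex, had the lowest slope (-0.80, SE 0.0772, adjusted p = 1.68e-06), followed by Zbtb17 (MIZ1), through which MYC represses genes (-0.69, SE 0.0582, adjusted p = 5.51e-07). At the other end stood Huwe1, a ubiquitin ligase (0.01, adjusted p = 0.875), and Ruvbl2, an ATPase and MYC cofactor (-0.07, adjusted p = 0.458), which did not pass. From 30 to 60 min, 4 of 15 fell in the membrane fraction by limma (Kat5, Pcgf6, Ruvbl1 and Ruvbl2), beside 12.7% of all genes. In total RNA, nucleus and cytosol 0 fell, with 3, 3 and 4 at an unadjusted p under 0.05. For the differences in slope 0 of 15 passed, with 1 at an unadjusted p under 0.05 in each comparison.

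As changes of existing mRNA, since transcription was blocked, 20 textbook MYC target genes were read in the same way. Of these 20, 19 were listed in all 48 libraries and Ldha in 0. Of these, 16 fell for total RNA, 16 for nuclear RNA, 18 for cytosolic RNA and 19 for membrane RNA, with 0 rising, beside 56.9%, 61.9%, 67.1% and 62.2% of all genes falling. The median slopes were -0.31 (total), -0.23 (nuclear), -0.43 (cytosolic) and -0.41 (membrane). The nuclear median lay above that of all genes (-0.30), and the others lay below theirs (-0.22, -0.28 and -0.26). The lowest in total RNA were Ppan (-0.97, SE 0.0522, adjusted p = 2.24e-08) and Nop2 (-0.69, SE 0.0374, adjusted p = 2.24e-08), both factors of ribosome assembly. The highest were Cdk4, a cell cycle kinase (-0.04, adjusted p = 0.206), and Ncl, the nucleolar protein nucleolin (-0.06, adjusted p = 0.0929), and neither passed there. Centred on the median gene, Cdk4 (0.19, adjusted p = 2.15e-05) and Ncl (0.17, adjusted p = 8.92e-05) rose relative to the other genes. Ncl had a nuclear slope higher than its cytosolic one by 0.31 (SE 0.0386, adjusted p = 2.89e-05, limma), and Eif4a1, Nolc1 and Rrs1 were also higher, making 4 of 19 with 0 lower, beside 12.3% of all genes higher and 8.30% lower. From 30 to 60 min, 7 of 19 targets fell in the membrane fraction and 1, Nop56, in the nucleus, beside 12.7% and 2.18% of all genes. In total RNA and cytosol 0 fell by limma, with 5 and 2 at an unadjusted p under 0.05.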

How the data were processed

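Polyadenylated RNA of 48 libraries was measured, with groups and replicate numbers taken from the sample titles. Reads had been aligned by the authors to mm10 with STAR 2.7.6 and counted with RSEM 1.3.3, libraries scaled on long-lived genes, and values divided by 0 min (submitters' processing notes and published methods). The deposited values are thus ratios (fold of 0 min), though their heading names read counts. Libraries list different genes, no listed value is 0, and why a gene is unlisted is not stated. Depth is treated as unknown, so no counting interval is given. The scaling fixes the direction of slow changes. For the final harvest the titles give 240 min, used here, and the protocol text 180 min.

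Slopes, steps from 30 to 60 min and differences in slope came from limma 3.58.1 under R 4.3.3 (eBayes with trend, two-sided) on log2 of the ratio with no pseudocount, for genes with a value in each of a fraction's 12 libraries (24 for differences), with Benjamini-Hochberg adjustment over all these genes and a threshold of 0.05. The tests were also run on simulated data with independent noise in each library, which does not cover the pairing of fractions by harvest. Half-lives are least squares fits of A·exp(-kt) in Python 3.11.15. For a fraction they describe net loss, with decay, entry and exit together, and not decay alone. Identifiers matched a symbol for 23786 of 23862 genes. Positions come from GENCODE annotation of GRCm38.

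Members and lists were chosen with earlier results of these data known. Named genes are the members, the other network genes, the 2 lowest and 2 highest slopes in total RNA of each further list, and the 3 genes nearest to a fully listed member; genes beyond this rule (markers, unlisted genes, Eif4a1, Nolc1, Rrs1, Nop56, Kat5, Pcgf6, Ruvbl1) were named after their values were seen. Alternatives were pseudocounts of 0.01 and 0.1, no filter, other scalings, leaving out replicates, 30 to 120 min only, 180 min as last time, a replicate block and limma without trend.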

Additional observations from a re-analysis of the deposited data

Results flagged for a closer look

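For 3 genes the change with time differed between fractions by a test of the difference itself, limma's interaction of time with fraction on 24 libraries. They were among 1 member and 5 other network genes tested. Such calls were not rare, with 12.3% of 11232 genes higher and 8.30% lower in the nucleus than in the cytosol. The slope of Mnt in the nucleus exceeded that in the cytosol by 0.28 log2 units per h (adjusted p = 0.0131). The same difference was 0.53 for Mxd1 (adjusted p = 0.00494) and -0.29 for Mlxipl (adjusted p = 0.0115). At 30 min, where the slopes start, the nuclear means of Mnt (0.590) and Mxd1 (0.525) were already below the cytosolic ones (0.912 and 0.723). Each of these calls was lost on leaving out at least 1 replicate. Groups held 3 libraries, too few for a test of single libraries that stand apart.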

How the results depend on the processing

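The scaling had the largest effect. Centring takes out the fall of the median gene, so calls under it are falls or rises relative to that gene. On the study's scaling 94.4%, 94.9%, 95.8% and 93.8% of called genes fell (total, nucleus, cytosol, membrane), and with libraries centred on the median gene 51.9%, 49.6%, 52.5% and 52.2% did (3961, 3897, 3887 and 3837 genes, against 7262, 8256, 8038 and 7718). Scaled to the same total the shares were 62.8%, 67.4%, 62.4% and 63.2%, and scaled to mitochondrially encoded mRNAs 98.7%, 83.2%, 90.7% and 99.5% (2808 genes in the nucleus and 3271 in the cytosol). The mitochondrial reference acted unlike between fractions. It moved the median slope from -0.30 to -0.11 in the nucleus and from -0.26 to -0.48 in the membrane fraction. The paper reports slight mitochondrial contamination of its nuclear fraction, and how far this reference is stable after the block was not tested. Depth is unknown and sets how low a ratio can be followed. The slope of Mnt kept its direction under every alternative run.

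Members that passed by slope (1 in each fraction) became 2 in each with unlisted genes as 0, 2 in the cytosol over 30 to 120 min, and 0 in the nucleus when centred or scaled to mitochondrial mRNAs. The added member was Mycn. For 60 against 30 min, the counts of 0 in total and cytosol became 1 with a pseudocount of 0.1, with genes listed in all 48 libraries only, or with limma without trend, and in the cytosol also with a pseudocount of 0.01 or mitochondrial scaling. In the nucleus it became 1 without the 30 min library of replicate 1 or with unlisted genes as 0. In the membrane fraction the count of 1 became 2 with unlisted genes as 0, and 0 when centred, scaled to the same total, or on leaving out any replicate (0 to 0). The nucleus minus cytosol count of 1 became 0 with mitochondrial scaling or over 30 to 120 min, and ranged from 0 to 1 on leaving out a replicate. The membrane minus cytosol count of 0 became 1 when centred, scaled to the same total, with the last time at 180 min, or with each harvest as a block, the last chosen after seeing the data.

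For the other network genes, these counts take in calls by slope of either direction. The 5 in the nucleus became 2 when centred, 2 scaled to the same total, 0 with mitochondrial scaling and 3 over 30 to 120 min. The 4 in the cytosol became 2 with mitochondrial scaling. The 4 in the membrane fraction became 2 when centred, Mxd1 and Mlxipl, and Mlxipl had a slope above 0 there before centring. When centred, Mlxipl also passed as a rise in the cytosol, where Mxd3 no longer passed. From 30 to 60 min 0 became 1 in total (pseudocount 0.1), 2 in the nucleus without the 30 min library of replicate 1, and 5 in the cytosol (mitochondrial scaling). The 2 nucleus minus cytosol calls became 1 with a pseudocount of 0.1 or with unlisted genes as 0, 0 with mitochondrial scaling, 0 over 30 to 120 min, and 1 to 1 on leaving out a replicate.

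Values that changed sign were, with mitochondrial scaling, the membrane minus cytosol difference of Mnt (-0.0866) and the slopes of Mlxipl (-0.0179 total, 0.128 cytosol, -0.0818 membrane) and Huwe1 (-0.11). Over 30 to 120 min Mlxipl was -0.21 in total and -0.0911 in the membrane fraction. When centred, Mlxipl in the cytosol was 0.251, Ruvbl2 0.158, Ncl 0.173 and Cdk4 0.185 in total, and scaled to the same total these were 0.20, 0.105, 0.121 and 0.132. Huwe1, 0.01 with all libraries, ranged from -0.0111 (without replicate 3) to 0.0234 on leaving out a replicate. The Mlxip nucleus minus cytosol difference ranged from -0.0316 (without replicate 1) to 0.0689 on leaving out a replicate, and was -0.0386 without the nuclear 30 min library of replicate 1. The cause of these changes was not tested.

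Within a fraction, deviations of same-numbered libraries at different times correlated weakly, on average between -0.01 (nucleus) and 0.05 (total). Between fractions at one time, same-numbered libraries were taken as 1 harvest. For membrane and cytosol these correlations ran from 0.03 to 0.17, with a mean of 0.06 against -0.03 for different numbers. For nucleus and cytosol they ran from -0.10 to 0.06, with a mean of 0.006 against -0.003. The harvest correlation was estimated at 0.14 and 0.15. With the replicate block the counts of members that passed by slope remained 1 in each fraction, and the block changed no call of a named gene. The half-life of Mnt moved by more than its SD in 20 of 41 alternative fits. The 41 include fits centred on the median gene or scaled to the same total, which measure loss relative to other genes.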
